A study of Papio anubis with 8 samples.

Results

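The IGF binding proteins are secreted proteins that hold the insulin-like growth factors IGF1 and IGF2 in the fluid around cells. Described here are 7 genes of this family, IGFBP2, IGFBP3, IGFBP4, IGFBP5, IGFBP6, IGFBP7 and IGFBPL1, taken by gene symbol from a table of 37053 genes of the fetal hippocampus. Each had 1 row, and all 7 passed the filter on low counts that 16874 genes passed. The hippocampi came from fetal olive baboons (Papio anubis) near term, at 0.9 of gestation, whose mothers varied in body fat and leptin. No label ties any of the 8 libraries, AMB3 to AMB10, to a mother's adiposity, leptin level, age or diet, to fetal sex or to a litter. The libraries are therefore described singly, and no maternal comparison was made. Whether each library came from a different fetus is not given in the labels. The p-values below treat libraries as independent and may therefore measure technical spread. They also treat the libraries as interchangeable, although the mothers varied and no groups are labelled. Whether a relation follows such groups was not tested.

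IGF1 and IGF2 act through the receptor tyrosine kinase IGF1R and promote growth, survival and maturation of neurons and glia, while IGF2R takes up and clears IGF2. A binding protein can shield an IGF from its receptor, keep it in store near the cell or the matrix, or lengthen its life. Proteases such as PAPPA and PAPPA2 cut the binding proteins and release the IGF. IGFBP2 to IGFBP6 bind IGFs with high affinity, whereas IGFBP7 binds them weakly and IGFBPL1 is a relative with a similar amino-terminal domain.

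The median library held 58168832 counts, the shallowest, AMB9, 40405016 and the deepest, AMB10, 71648801. Levels are CPM (counts per 1000000 of library size), with library sizes adjusted by TMM, the trimmed mean of M-values. They are compared between libraries only, since no transcript length was used and counts grow with the length of a transcript. Intervals in parentheses are exact Poisson 95% intervals and cover counting error only. All 6 markers of dentate granule cells, a neuron type that defines the hippocampus, passed the filter, and their summed level was 736.7 CPM in AMB8 and 698.3 CPM in AMB10 against 109.5 to 238.7 CPM in the other 6 libraries. FIBCD1 alone gave 400.1 CPM of this sum in AMB8 and 366.6 CPM in AMB10. The median over the list of log2 CPM minus the median of each gene weighs markers alike. It was 1.69 in AMB8 and 1.56 in AMB10, and next highest in AMB3 at 0.50. DSP went the other way, with 6.01 CPM in AMB7, 2.71 CPM in AMB8 and 2.18 CPM in AMB10. AMB8 and AMB10 thus stood apart in this list, though not in each of its markers. Ranges and counts of the IGF system are also given without both where that moved them by more than 1.5 times.

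The 7 genes differed in how far they varied between libraries. The log2 range, the difference in log2 CPM between the highest and the lowest library, was at least 1 for IGFBP3, IGFBP5 and IGFBP6, which is 3 of 7, beside 36.1% of all tested genes. It was at least 2 for IGFBP6 alone, beside 9.0% of all tested genes. The median range was 0.90 over the 7 genes and 0.77 over all tested genes, so that the family as a whole lay close to the background. IGFBP6 varied most, with a range of 2.23, and IGFBPL1 varied least, with a range of 0.39.

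**Figure D1:**
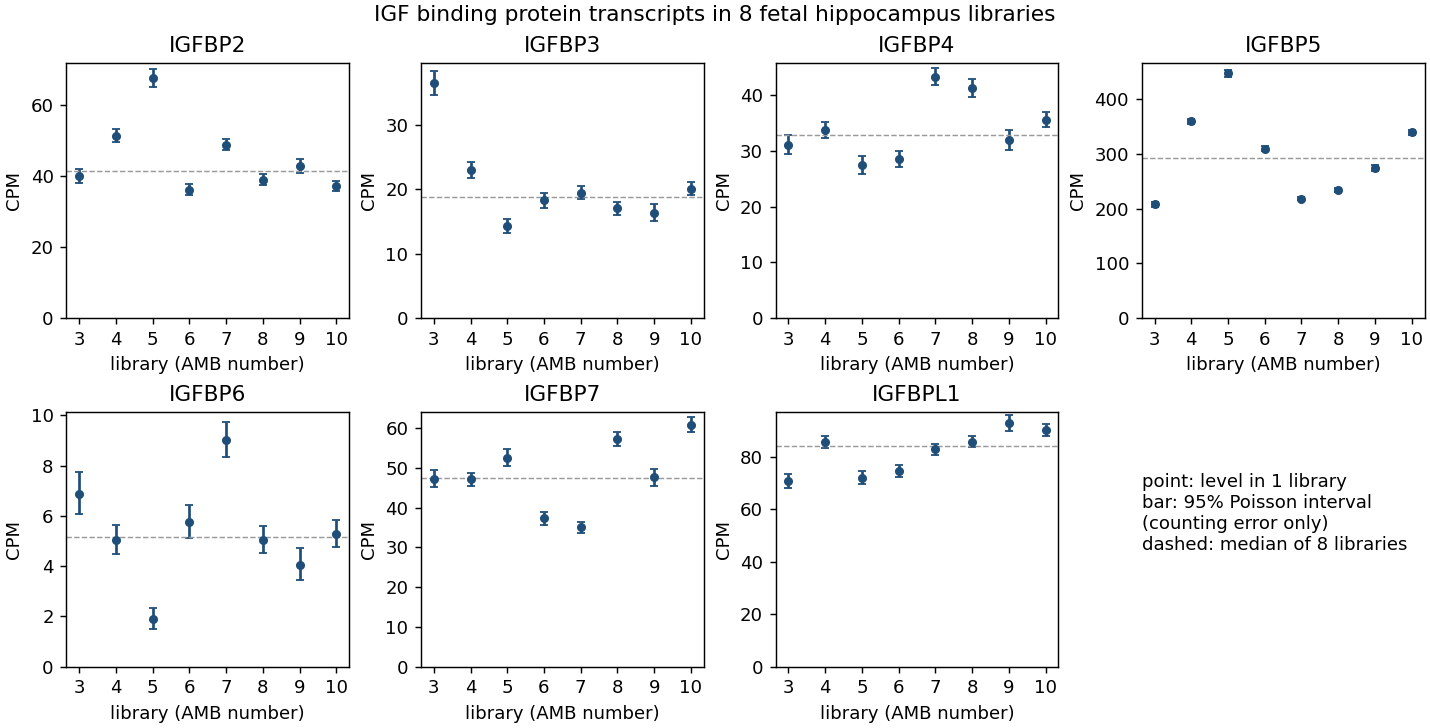
Level of each IGF binding protein gene in each of the 8 libraries, in CPM on TMM-scaled library sizes, 1 panel per gene with its own axis; points are libraries, dashed lines medians and bars exact Poisson 95% intervals for counting error. IGFBP3 is highest in AMB3 at 36.4 CPM, IGFBP2 and IGFBP5 are highest in AMB5, and IGFBP6 is lowest in AMB5 at 1.89 CPM.

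Among the proteins of high affinity, IGFBP5 is a conserved member that binds matrix, and IGFBP2 carries an RGD sequence through which it can bind integrins. IGFBP5 ran from 207.8 CPM in AMB3 to 446.9 CPM in AMB5, with a median of 292.0 CPM and counts of 8428 to 24269. Its log2 range was 1.10, a 2.15-fold spread that 31.1% of tested genes equalled or passed. From the highest level down the order was AMB5, AMB4, AMB10, AMB6, AMB9, AMB8, AMB7 and AMB3, and no neighbouring pair in it had overlapping counting intervals. IGFBP5 took 47.2% (AMB3) to 65.5% (AMB5) of the summed CPM of the 7 genes, a share of reads and not of molecules. That sum ran from 440.1 CPM in AMB3 to 682.6 CPM in AMB5.

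IGFBP2 stood at 67.5 CPM in AMB5, above the 51.3 CPM of AMB4 and the 48.9 CPM of AMB7. The other 5 libraries lay between 36.2 CPM (AMB6) and 42.7 CPM (AMB9), and neighbours among them did not differ beyond counting error. The median was 41.4 CPM and the log2 range 0.90, which 41.3% of tested genes equalled or passed. AMB5 set this spread, since without it the range was 0.50.

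IGFBP2 and IGFBP5 are neighbours on chromosome 10 (assembly Panubis1.0), IGFBP2 at 100413709 to 100443417 on the plus strand and IGFBP5 at 100451082 to 100471900 on the minus strand, 7664 bases apart with their 3′ ends facing. Both were highest in AMB5, but their levels did not keep a fixed proportion. The ratio of IGFBP5 to IGFBP2 in CPM ran from 4.47 in AMB7 to 9.13 in AMB10. Over the 8 libraries Spearman's rho was 0.31 (exact permutation p = 0.462) and Pearson's r 0.53 (exact permutation p = 0.178). Without the 2 libraries farthest from the median of IGFBP2, r was -0.60, so that the positive sign rested on those libraries. Without AMB8 and AMB10 instead, rho was 0.60 and r 0.64 over 6 libraries.

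IGFBP3, which in blood carries most of the circulating IGF in a complex with the protein encoded by IGFALS, was set apart by a single library. It measured 36.4 CPM (34.6 to 38.3) in AMB3 and 22.9 CPM in AMB4. The other 6 libraries lay between 14.3 CPM (13.2 to 15.5) in AMB5 and 20.1 CPM in AMB10, and the median was 18.9 CPM. The interval of AMB3 overlapped that of no other library. The log2 range of 1.35 was equalled or passed by 22.0% of tested genes, and it fell to 0.68 without AMB3. AMB3 is also the library whose title ends in L1000 where the others end in S and a number, whose meaning the labels do not give. The part of that difference in the IGFBP3 level was not tested.

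IGFBP1, the liver-derived binding protein that insulin represses, is the nearest annotated neighbour of IGFBP3. On chromosome 4, IGFBP1 spans 115500457 to 115505798 on the plus strand and IGFBP3 spans 115526597 to 115535506 on the minus strand, with 20798 bases between them. IGFBP1 was close to the limit of detection, with 8 to 40 counts, and measured 0.986 CPM (0.705 to 1.34) in AMB3 and 0.184 CPM (0.0796 to 0.363) in AMB5. Both genes were highest in AMB3 and lowest in AMB5, with AMB4 next to the top. Their rho was 0.79 (exact permutation p = 0.0279, adjusted p = 0.965 over all tested genes) and their r 0.95 (exact permutation p = 0.00191, adjusted p = 0.999). Without AMB3 rho was 0.68, and without the 2 libraries farthest from the median of IGFBP3 r was 0.62.

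**Figure D2:**
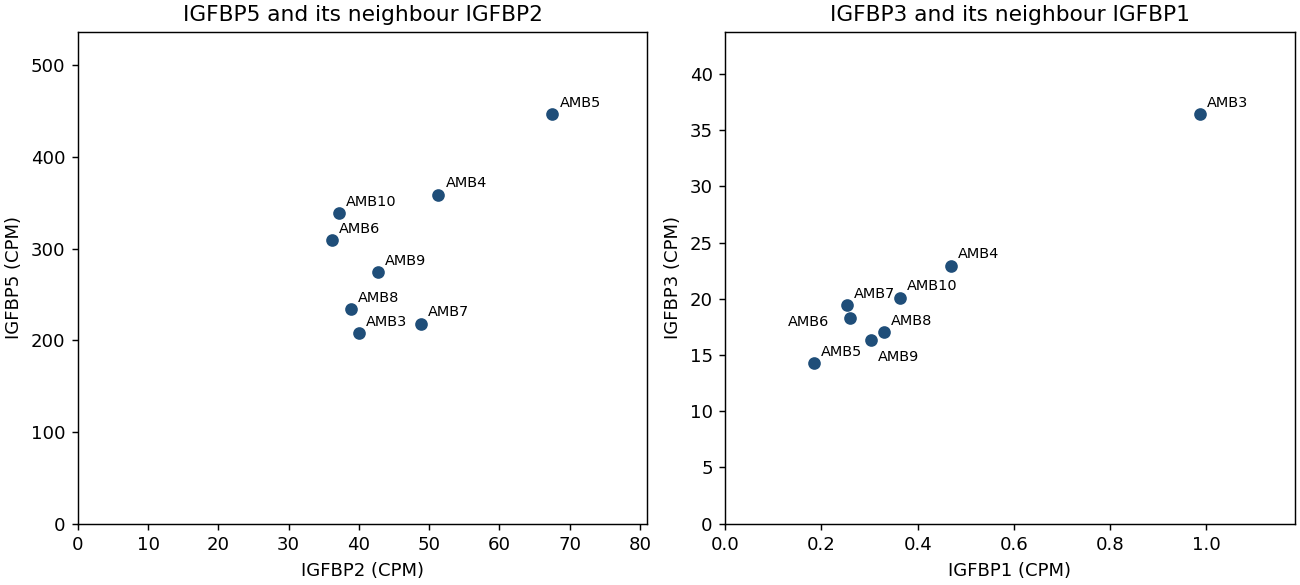
Levels of 2 neighbouring gene pairs in the 8 libraries, in CPM on TMM-scaled library sizes; each point is a library. On the left IGFBP5 is plotted against IGFBP2, with both highest in AMB5 and a ratio between 4.47 and 9.13; on the right IGFBP3 is plotted against IGFBP1, with AMB3 at 36.4 and 0.986 CPM beyond all other libraries.

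IGFBP4, which mainly inhibits IGF action and is the best known substrate of PAPPA, lies on chromosome 17 at 47562707 to 47577829 on the plus strand. It was highest in AMB7 at 43.2 CPM and AMB8 at 41.3 CPM, which did not differ beyond counting error. It was lowest in AMB5 at 27.4 CPM, with a median of 32.8 CPM. The log2 range of 0.66 was equalled or passed by 59.1% of tested genes, so that IGFBP4 lay near the middle of the tested genes, whose median was 0.77.

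IGFBP6, which prefers IGF2 over IGF1, lies on chromosome 9 at 47844069 to 47849200 on the plus strand, 116 bases upstream of the start of SOAT2 on the same strand. It measured 9.01 CPM (8.33 to 9.74) in AMB7 and 1.89 CPM (1.5 to 2.35) in AMB5, a 4.77-fold difference, with a median of 5.16 CPM. The other 6 libraries lay between 4.06 CPM (AMB9) and 6.88 CPM (AMB3). AMB7 and AMB5 therefore each stood clear of all other libraries beyond counting error, at opposite ends. The log2 range of 2.23 was equalled or passed by 6.70% of tested genes. It was 1.15 without AMB5, and without AMB5 or without AMB7 none of the 7 genes reached a range of 2.

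IGFBP7, a weak IGF binder found in vessel walls and basement membranes, lies on chromosome 3 at 101304066 to 101382033 on the minus strand. It was highest in AMB10 at 60.8 CPM and AMB8 at 57.2 CPM, which did not differ beyond counting error. AMB6 at 37.3 CPM and AMB7 at 35.1 CPM were lowest, and the median was 47.4 CPM. The log2 range was 0.79 with all libraries and 0.58 without AMB8 and AMB10, the libraries with the high dentate granule cell list. Its annotated span overlaps POLR2B, on the opposite strand, by 89 bases. The libraries were made with a strand-specific kit, but whether the counting used strand is not given in the sources used here.

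IGFBPL1, known from newly formed neurons of the developing forebrain, lies on chromosome 13 at 66455422 to 66472035 on the minus strand. It ran from 70.7 CPM in AMB3 to 92.8 CPM in AMB9, with a median of 84.3 CPM. AMB9, AMB10, AMB8, AMB4 and AMB7 formed an upper run without a break beyond counting error between neighbours, and AMB6, AMB5 and AMB3 a lower run. The log2 range of 0.39 was equalled or passed by 86.6% of tested genes, which makes IGFBPL1 the steadiest gene of the 7.

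**Figure D3:**
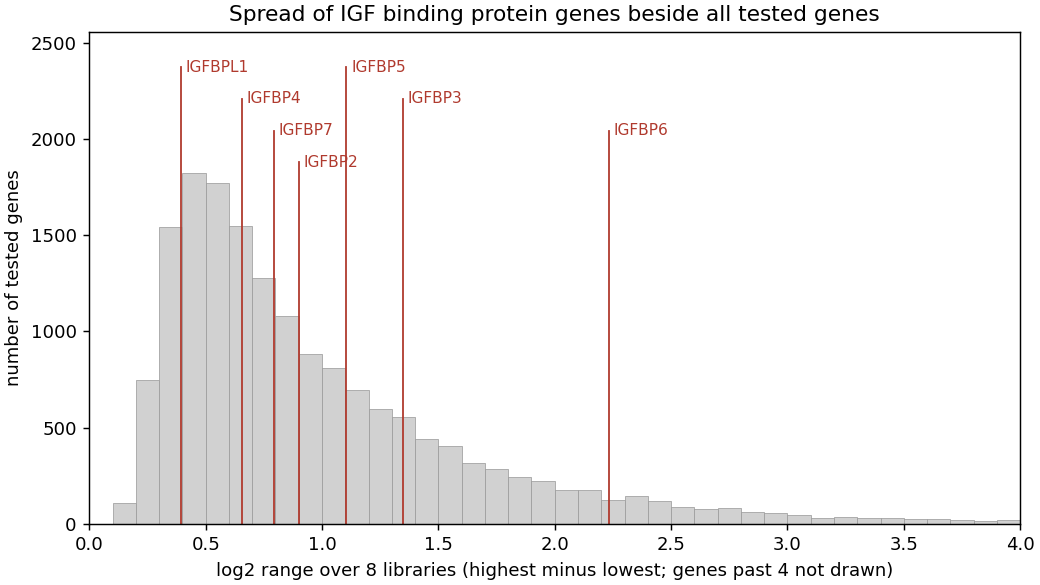
Distribution of the log2 range (highest minus lowest library, log2 CPM with prior count 2) over the 16874 tested genes, with the 7 IGF binding protein genes marked by lines. IGFBPL1 lies in the low part at 0.39, IGFBP2, IGFBP4 and IGFBP7 near the median of 0.77, and IGFBP6 in the upper tail at 2.23.

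The 7 genes did not rise and fall together. Among their 21 pairs rho was positive in 8, negative in 12 and 0 in 1, with a median of -0.17. The most negative pair was IGFBP5 with IGFBP6, at rho -0.71 (exact permutation p = 0.0576) and r -0.78 (exact permutation p = 0.0162, adjusted p = 0.998 over all tested genes). AMB5 had the highest IGFBP5 and the lowest IGFBP6, and AMB7 and AMB3, the libraries with the least IGFBP5, had the most IGFBP6. Without the 2 libraries farthest from the median of IGFBP5, r was -0.47. The most positive pair was IGFBP3 with IGFBP6, at rho 0.62 (exact permutation p = 0.115) and r 0.58 (exact permutation p = 0.152), and r was 0.28 without the 2 libraries farthest from the median of IGFBP3. No pair of the 7 passed 0.05 after adjustment over all tested genes, which 8 libraries make hard to pass whatever the relation.

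**Figure D4:**
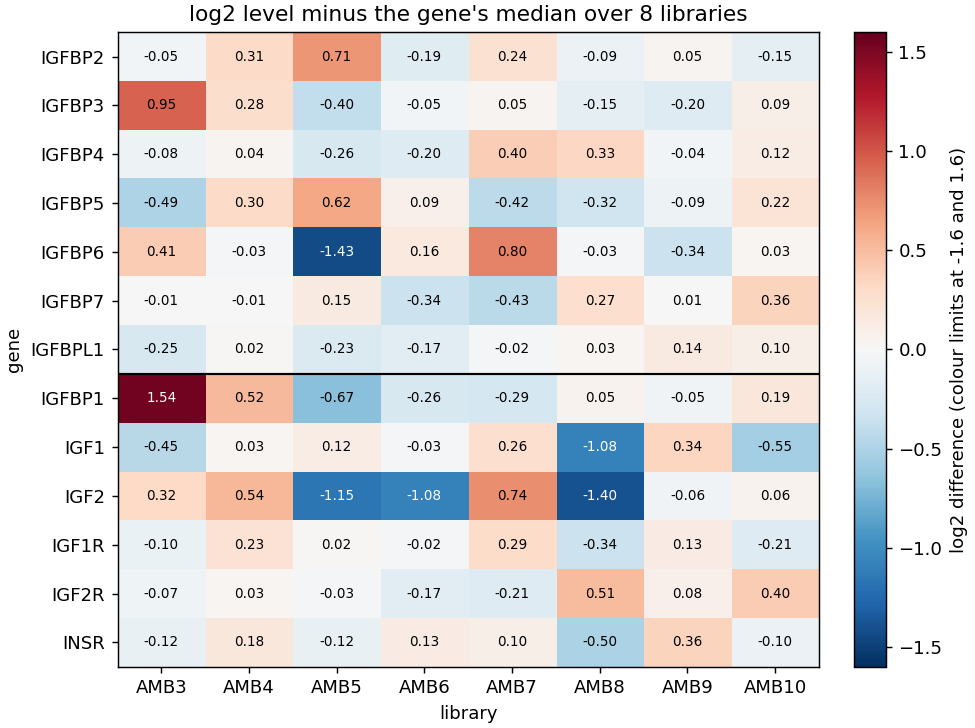
Level of each gene in each library as log2 CPM (prior count 2) minus the median of that gene over the 8 libraries; rows are the 7 IGF binding protein genes and, below them, IGFBP1, the 2 ligands and 3 receptors, columns are libraries. IGFBP5 and IGFBP6 stand at opposite ends in AMB5, and the AMB3 column is highest for IGFBP3 and IGFBP1.

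The log2 ranges of both ligands were larger than those of the receptors. IGF1 ran from 30.5 CPM in AMB8 to 81.8 CPM in AMB9, a log2 range of 1.42. IGF2 ran from 3.11 CPM in AMB8 to 13.8 CPM in AMB7, a log2 range of 2.14. The receptors IGF1R, IGF2R and INSR had ranges of 0.64, 0.71 and 0.86, with IGF1R at 52.1 CPM (AMB8) to 81.0 CPM (AMB7) and IGF2R at 88.6 CPM (AMB7) to 145.2 CPM (AMB8). AMB8 was lowest in IGF1, IGF2, IGF1R and INSR and highest in IGF2R, and it set much of this spread. Without AMB8 the range was 0.89 for IGF1 and 0.48 for INSR. Without AMB8 and AMB10 the ranges were 0.79 for IGF1, 1.90 for IGF2, 0.39 for IGF1R, 0.28 for IGF2R and 0.48 for INSR, so that both ligands still lay above the receptors. Of the 7 genes of the ligand and receptor list 5 were tested. A range of 1 or more was reached by 2 of them (IGF1 and IGF2), beside 36.1% of all tested genes, and by 1 without AMB8. IGF2 reached a range of 2 or more, beside 9.0% of all tested genes, but not without AMB7 or without AMB8. IGFBP6 and its preferred ligand IGF2 were both highest in AMB7, with rho 0.52 (exact permutation p = 0.197) and r 0.56 (exact permutation p = 0.138), and r was 0.06 without the 2 libraries farthest from the median of IGFBP6. IGFBP3 and IGF2 had rho 0.71 (exact permutation p = 0.0576) and r 0.57 (exact permutation p = 0.125), and r 0.61 without the 2 libraries farthest from the median of IGFBP3.

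IGFBP7 and IGF2R were both highest in AMB8 and AMB10 and lowest in AMB6 and AMB7. Their rho was 0.86 (exact permutation p = 0.0107) and their r 0.86 (exact permutation p = 0.0111), with an adjusted p of 0.278 for rho over all tested genes. Without the 2 libraries farthest from the median of IGFBP7, r was 0.77. Without AMB8 and AMB10, rho was 0.71 and r 0.84 over 6 libraries. Of all other tested genes, 13.0% had an unadjusted p under 0.05 with IGFBP7 by rho.

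Of 24 listed proteases of the binding proteins and their inhibitors, 20 were tested. Of these, 11 had a range of 1 or more, beside 36.1% of all tested genes, and 4 of 2 or more, beside 9.0%. Without AMB8 and AMB10 the count at 1 or more was 6. The most abundant by CPM were TIMP2 (634.6 to 1103 CPM, and 858.6 CPM upwards without AMB8 and AMB10), an inhibitor of matrix metalloproteinases, the serine protease inhibitor SERPINE2 (142.9 to 202.3 CPM), the lysosomal protease CTSD (101.7 to 152.4 CPM) and the membrane sheddase ADAM10 (71.5 to 91.9 CPM). PAPPA2, a metalloproteinase that cuts IGFBP3 and IGFBP5, varied most of the list, from 0.912 CPM in AMB8 to 19.9 CPM in AMB3, a log2 range of 4.40. AMB5 had 18.1 CPM of PAPPA2 and AMB10 had 1.68 CPM. The low end lay in AMB8 and AMB10, and without them the range was 2.22 and smaller than that of STC2, at 2.84. PAPPA, the protease of IGFBP4, did not pass the filter and lay between 0.149 and 0.479 CPM.

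PAPPA2 ran against IGFBP4, with rho -0.83 (exact permutation p = 0.0154, adjusted p = 0.637) and r -0.77 (exact permutation p = 0.0262, adjusted p = 0.885). Without the 2 libraries farthest from the median of IGFBP4 r was -0.81, and without AMB8 and AMB10 rho was -0.77 and r -0.74. PAPPA2 also ran against IGFBPL1, with rho -0.79 (exact permutation p = 0.0279, adjusted p = 1.0) and r -0.76 (exact permutation p = 0.0317, adjusted p = 0.943), and r was -0.46 without the 2 libraries farthest from the median of IGFBPL1. IGFBP3, a substrate of PAPPA2, had rho 0.14 with it (exact permutation p = 0.752) and r 0.29 (exact permutation p = 0.491), with r 0.21 without the 2 libraries farthest from its median. IGFBP5, another substrate, had rho 0.10 with it (exact permutation p = 0.84) and r 0.21 (exact permutation p = 0.608), with r 0.32 without the 2 libraries farthest from its median. The stanniocalcins STC1 and STC2, inhibitors of PAPPA and PAPPA2 that were picked out after their values were seen, each had 1 high library. STC1 measured 19.8 CPM in AMB3 and 3.28 to 7.61 CPM elsewhere, and STC2 measured 16.8 CPM in AMB7 and 1.27 to 7.46 CPM elsewhere.

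Among 12 atypical relatives of the family with a row, of 13 listed, 9 were tested. Of these, 7 had a range of 1 or more, beside 36.1% of all tested genes, and 4 of 2 or more, beside 9.0%. A range of 2 or more was left in 2 of them without AMB5, without AMB8, or without AMB8 and AMB10. HTRA1, a secreted serine protease with an IGFBP-like domain, ran from 183.1 CPM in AMB7 to 302.8 CPM in AMB8, and CCN3, a matricellular protein, from 68.0 CPM in AMB7 to 157.3 CPM in AMB10. Without AMB8 and AMB10 HTRA1 reached 234.8 CPM and CCN3 110.3 CPM, with ranges of 0.36 in place of 0.72 and 0.70 in place of 1.21. The related CCN2 ran from 14.2 to 42.6 CPM and HTRA3 from 3.36 to 5.44 CPM. CCN4 varied most of the list, from 0.568 CPM in AMB8 to 4.93 CPM in AMB3, a log2 range of 3.04. IGFALS, the partner of IGFBP3 in blood, was not tested and lay between 0.135 and 1.09 CPM.

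IGFBP7 followed HTRA1 and CCN3 across the libraries, but such relations of IGFBP7 were common. Of the 16873 other tested genes, 2190 (13.0%) had an unadjusted p under 0.05 with IGFBP7 by rho. Its rho with CCN3 was 0.93 (exact permutation p = 0.00223, adjusted p = 0.258) and r was 0.91 (exact permutation p = 0.00285, adjusted p = 0.215). Without the 2 libraries farthest from the median of IGFBP7 r was 0.80, and without AMB8 and AMB10 rho was 0.83 and r 0.82. With HTRA1 rho was 0.83 (exact permutation p = 0.0154, adjusted p = 0.296) and r 0.88 (exact permutation p = 0.00724, adjusted p = 0.217). Without the same 2 libraries r was 0.78, and without AMB8 and AMB10 rho was 0.66 and r 0.80.

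The partners through which the binding proteins act at the cell surface or in the matrix were all detected. All 18 listed were tested. Of these, 8 had a range of 1 or more, beside 36.1% of all tested genes, and 1 of 2 or more, beside 9.0%. LRP1, a receptor for IGFBP3, ran from 445.6 to 558.9 CPM (481.2 CPM upwards without AMB3), and FN1, the matrix protein fibronectin, ran from 270.4 CPM in AMB8 to 482.3 CPM in AMB5. PTPRZ1, a phosphatase receptor that binds IGFBP2, ran from 289.9 CPM in AMB7 to 784.2 CPM in AMB10, while TFRC ran from 84.8 to 111.3 CPM (94.4 CPM upwards without AMB5). Transferrin (TF), which binds IGFBP3 and is also made by oligodendrocytes, ran from 44.7 CPM in AMB5 to 232.4 CPM in AMB10, a range of 2.38.

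Downstream of the receptors, all 16 listed signalling genes were tested and their median range of 0.58 was below that of all tested genes. Of these, 3 had a range of 1 or more, beside 36.1% of all tested genes. A range of 2 or more was reached by 2 of the 16 (1 without AMB3 or without AMB5), beside 9.0% of all tested genes. Among those of highest median CPM were the adaptor GRB2 (344.6 to 422.3 CPM), the regulatory subunit PIK3R1 (193.3 to 442.1 CPM) and the kinase GSK3B (230.3 to 308.2 CPM). IRS4, a docking protein of the receptors, ran from 0.239 CPM in AMB8 to 13.9 CPM in AMB3, a range of 5.67 that was 3.66 without AMB3. IRS1, another docking protein, named after its values were seen, had rho -0.95 with IGFBP7 (exact permutation p = 0.00114, adjusted p = 0.253) and r -0.81 (exact permutation p = 0.0106, adjusted p = 0.231), with r -0.80 without the 2 libraries farthest from the median of IGFBP7 and rho -0.94 and r -0.91 without AMB8 and AMB10. IRS1 had a range of 0.62 with all libraries and of 0.25 without AMB8 and AMB10. In all, the 7 genes were related to 68 genes of the IGF system, and 28 of 476 relations (5.88%) had an unadjusted p under 0.05 by rho. None had one after adjustment over all tested genes, which 8 libraries make hard to pass. Over all tested genes the unadjusted share by rho ran from 2.82% for IGFBP5 to 13.0% for IGFBP7, a span that holds the 5.88%.

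Several cell types of brain make binding proteins, and in pieces of whole tissue fewer cells of a type and less RNA per cell cannot be told apart. Scores of 16 marker lists (the median over a list of log2 CPM minus the median of each gene) were set beside each of the 7 genes. Of the 112 relations 3 had an unadjusted p under 0.05 by rho and 3 by r, and none had one after adjustment over the 112, where the smallest adjusted p was 0.822 by rho and 0.842 by r. IGFBP2 was lower where astrocyte markers were higher, with rho -0.74 (exact permutation p = 0.0458) and r -0.75 (exact permutation p = 0.0299), and r -0.85 without the 2 libraries farthest from its median. The radial glia list gave IGFBP2 the same rho of -0.74 and r -0.68 (exact permutation p = 0.0591), with r -0.86 without those 2 libraries. IGFBP7 ran against the microglia list, with rho -0.76 (exact permutation p = 0.0368) and r -0.63 (exact permutation p = 0.0939), with r -0.83 without the 2 libraries farthest from its median, and rho -0.77 and r -0.58 without AMB8 and AMB10. By r alone, IGFBP7 ran with the ependyma list, at r 0.74 (exact permutation p = 0.0322) and rho 0.64 (exact permutation p = 0.0962). That r was 0.89 without the 2 libraries farthest from its median and 0.39 without AMB8 and AMB10. Likewise IGFBP4 ran against the red blood cell list, of which 3 genes were tested, at r -0.71 (exact permutation p = 0.0492) and rho -0.60 (exact permutation p = 0.132). That r was 0.16 without the 2 libraries farthest from its median, so that its sign rested on them.

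IGFBP3 and IGFBP6 are also made by mural and meningeal cells, whose markers differed widely between libraries. Among all tested genes 36.1% had a range of at least 1. Of 10 pericyte and smooth muscle markers 9 were tested and 7 had a range of at least 1. Their summed level ran from 166.2 CPM in AMB8 to 461.9 CPM in AMB4, with 296.9 CPM in AMB3, and CNN1 was at 0 in AMB5. The AMB4 sum held 128.5 CPM of ACTA2, 80.7 CPM of TAGLN and 59.05 CPM of MYH11, whereas PDGFRB, RGS5 and NOTCH3 were highest in AMB10. By the score AMB10 was highest at 0.278 and AMB8 lowest at -0.475, with AMB3 at 0.158 and AMB4 at 0.091. The score of this list had rho 0.71 with IGFBP3 (exact permutation p = 0.0576) and r 0.52 (exact permutation p = 0.189), with r 0.55 without the 2 libraries farthest from the IGFBP3 median. Of 12 meningeal and fibroblast markers 11 were tested and 10 had a range of at least 1. Their summed level was lowest in AMB5 at 264.2 CPM and highest in AMB7 at 816.1 CPM, the same libraries that were lowest and highest in IGFBP6, and SLC22A8 was at 0 in AMB5 and AMB10. By the score, which weighs each marker alike, AMB7 was highest at 0.60, but AMB8 was lowest at -0.89, with AMB5 at -0.53. With the meningeal score IGFBP6 had rho 0.55 (exact permutation p = 0.171) and r 0.54 (exact permutation p = 0.168), and r was 0.16 without the 2 libraries farthest from the IGFBP6 median. The part of these cells in the IGFBP3 and IGFBP6 levels was not tested.

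Endothelial markers varied less, with 12 of 12 tested and 2 with a range of at least 1, beside 36.1% of all tested genes. Their sum ran from 305.9 CPM in AMB7 to 417.2 CPM in AMB3. IGFBP7, which vessels express, had rho 0.19 with the endothelial score (exact permutation p = 0.665) and r 0.43 (exact permutation p = 0.282), with r -0.06 without the 2 libraries farthest from its median. IGFBPL1 had rho -0.19 with the immature neuron score (exact permutation p = 0.665) and r -0.12 (exact permutation p = 0.776), although both were highest in AMB9. Only 2 of 8 choroid plexus markers were tested, and TTR, the marker of that tissue, was at 0 in AMB5 and at most 2.47 CPM in the other libraries. AQP1, KL and CLIC6 of that list reached 22.1, 7.96 and 4.04 CPM, and AQP1 ran down to 0.493 CPM in AMB3.

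**Figure D5:**
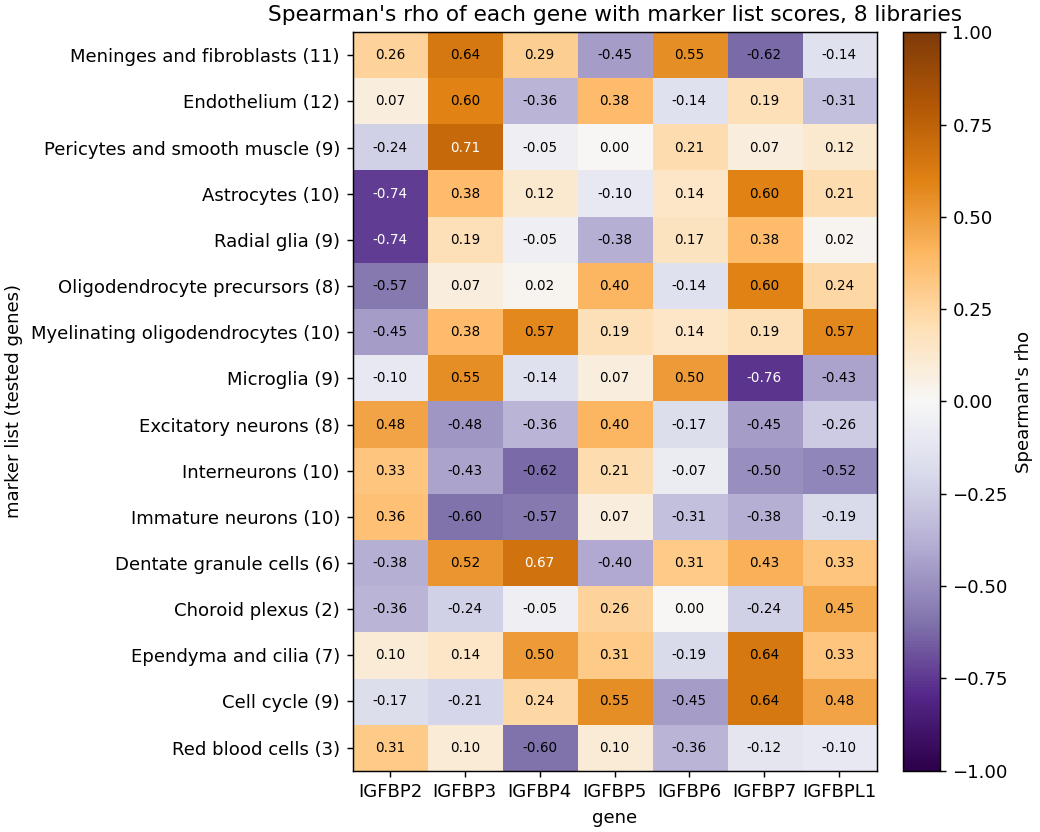
Spearman's rho over 8 libraries between each IGF binding protein gene (columns) and the score of each of the 16 cell marker lists (rows); colour and printed numbers give rho. The most negative cells are IGFBP7 with microglia at -0.76 and IGFBP2 with astrocytes and radial glia at -0.74, and the most positive is IGFBP3 with pericytes and smooth muscle at 0.71; none passed 0.05 after adjustment.

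Each of the 7 genes was related to all 16873 other tested genes, and none had a relation with an adjusted p under 0.05 by rho or by r. With 8 libraries the smallest p that rho can have is 5e-05. SNX6, the only gene to match the order of IGFBPL1 exactly, had an adjusted p of 0.837. The adjustment could therefore hardly be passed by rho, and its outcome does not show that relations are absent. The smallest adjusted p by rho was 0.139, for IGFBP7. Unadjusted, IGFBP7 had the most relations with p under 0.05, 2190 genes or 13.0% by rho and 2823 by r. By rho the share was 6.53% for IGFBP2, 6.35% for IGFBP4, 4.27% for IGFBP3, 4.04% for IGFBPL1, 3.15% for IGFBP6 and 2.82% for IGFBP5, and genes are not independent of each other. The genes named next are those most alike in order over the 8 libraries, given as a description. Genes that shared a rho were ranked by r, so that some with the same rho are not named.

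The order of libraries by IGFBP7 was matched exactly, at rho 1.0, by ACP6, a lysophosphatidic acid phosphatase, and CHRNA7, a nicotinic acetylcholine receptor subunit. MOCS2, CKAP2 and CAMK1G followed, among 10 genes that shared a rho of 0.98. The order of IGFBP7 was itself not settled by counting, since AMB9, AMB3 and AMB4 lay at 47.6, 47.3 and 47.1 CPM with overlapping intervals between neighbours. The IGFBP7 order was reversed exactly, at rho -1.0, by ZCCHC8 and IFRD2, among others. IGFBP4 was matched exactly by SPAG1, followed by MDGA1, KDM4C, KRR1 and MTF1, and was reversed exactly by FAM120AOS, followed by ABRACL and SLX1A. IGFBPL1 was matched exactly by SNX6, a sorting nexin, followed by TTC21B, FAM107B, ZNF677 and PRDM16, and ran most against ROBO3, an axon guidance receptor, ECHDC3 and OLFM1. The orders of IGFBP4 and IGFBPL1 were likewise not settled by counting, with overlapping intervals between most neighbours.

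IGFBP3 was most like SFRP2, a secreted modulator of WNT signalling, ASB5, GATA2 and CD86, each at rho 0.98, and BMPR1A, a BMP receptor, at 0.95. It ran most against NDUFV2, SMARCD3 and FAM214B. SFRP2 measured 8.63 CPM in AMB3 and 0.945 CPM in AMB5, the same highest and lowest libraries as IGFBP3. IGFBP6 was most like SMAD4, the common mediator of TGF-beta and BMP signals, CDH26, CDKN1B, ARHGAP27 and MALT1, and was reversed exactly by PRKAG1, followed by ACTR8 and RDH11. PRKAG1 ran only from 47.0 CPM in AMB7 to 54.8 CPM in AMB5. The order of IGFBP6 was not settled by counting either, since neighbours from AMB3 down to AMB9 had overlapping intervals.

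IGFBP2 was most like GOLGA2, a Golgi matrix protein, and GPATCH4, both at rho 0.98, then TTC9C, CDV3 and EFTUD2, and ran most against PLD2, AGPAT2 and KRT10. IGFBP5 was most like CAPSL and DDO, both at rho 0.95, then WDR55, RGR and SCD5, and ran most against genes that included CPAMD8 and PLPP6. CPAMD8 measured 9.76 CPM in AMB3, where IGFBP5 was lowest, and 1.52 CPM in AMB5, where it was highest. None of the relations named in these 3 paragraphs passed the adjustment.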

How the data were processed

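The authors' raw columns hold estimated counts, assigned to RefSeq genes per the file headers and often fractional, which were rounded here. The normalized columns the authors deposited are log2 values and served as an alternative. For each of the 7 genes the deposited value was 0 in the middle one of AMB3, AMB8 and AMB10. These values are thus relative to those libraries, and the labels do not say why. Per the submitters' processing notes, DESeq was among the tools. Aligner, counting tool and build: not given in the sources used here. The coordinates and symbols of the 7 genes equal those of the RefSeq table of Panubis1.0. Genes were kept by filterByExpr in edgeR 4.0.16 (R 4.3.3) without groups and with a count minimum of 10. Library sizes were TMM-scaled, and log2 CPM had a prior count of 2. Relations over 8 libraries are Spearman's rho and Pearson's r on log2 CPM with exact two-sided permutation p-values over 40320 pairings, with Benjamini-Hochberg adjustment over all tested genes for each of the 7 (for marker scores, over the 112 relations). No pooled value was to be given for a gene whose libraries fell into separate clusters (a gap wider than 0.5 of the range, 2 or more libraries either side), and none of the 7 did.

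The 7 genes and 21 lists (222 genes, 213 with a row) were chosen with earlier results of these data known. Named are all 7, their neighbours, in each of 5 IGF-system lists the 4 genes highest in median CPM and the 1 that varied most, and per gene the 5 most and 3 least alike by rho among genes with a median count of at least 50 and a symbol not starting with LOC. Some genes that this rule names are not reported here. Alternatives were total-count and DESeq2 1.42.0 scaling, the deposited values, other prior counts and filters, and each library left out. The analysis was checked on simulated counts with counting error only, in which all genes given a change shared a single pattern over the libraries. That check does not show which relations could be found in the real libraries.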

Additional observations from a re-analysis of the deposited data

Results flagged for a closer look

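For 75 genes (the 7 binding proteins and all 68 tested genes of the 5 IGF-system lists) the gap between the most extreme library and its nearest neighbour, as a share of the whole range in CPM, was set against the 95% critical value of Dixon's test for 8 values. In 5 genes it was larger. AMB3 was the extreme library, as the highest, for IGFBP3 at 36.4 CPM, IGFBP1 at 0.986 CPM, STC1 at 19.8 CPM and IRS4 at 13.9 CPM, and AMB7 for STC2 at 16.8 CPM. Chance alone passes the value in about 1 of 20 genes, a rate that is only a guide for genes and lists chosen with earlier results known. On the log2 scale 2 of the 75 genes passed it, STC1 in AMB3 and, at the low end, KAZALD1 in AMB8 at 1.26 CPM. AMB3 is the library with the differing title, and the part of that difference was not tested.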

How the results depend on the processing

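The log2 range of each of the 7 genes lay within these bounds under total-count or DESeq2 scaling, the deposited log2 values and prior counts of 0.5 and 5: IGFBP2 0.80 to 0.92, IGFBP3 1.33 to 1.42, IGFBP4 0.65 to 0.74, IGFBP5 1.04 to 1.12, IGFBP6 2.20 to 2.31, IGFBP7 0.78 to 0.79 and IGFBPL1 0.39 to 0.41. Under these the count with a range of at least 1 stayed at 3 and that of at least 2 at 1. Leaving out each library in turn gave 2 (without AMB3 or AMB5) to 3 genes with a range of at least 1, and 0 (without AMB5 or AMB7) to 1 with a range of 2 or more. Ranges shrank by more than 1.5 times for IGFBP2 (0.50 without AMB5), IGFBP3 (0.68 without AMB3) and IGFBP6 (1.15 without AMB5). Leaving out AMB8 and AMB10, chosen after seeing the data, left both counts as they were. With only a count of at least 1 in every library asked for, 45.2% of genes had a range of 1 or more and 15.6% of 2 or more, since low counts enter. With no filter 37053 genes remain and with a minimum count of 50 there are 14474, and all 7 are among them. No gene was related to any of the 7 at an adjusted p under 0.05 under any alternative run, though 8 libraries allow few pairings and 7 or 6 fewer still. Levels per kilobase were not run, because no transcript or coding length was used here. No paired analysis was possible because the labels give no groups. Counting error limits IGFBP1 (8 to 40 counts) and, less, IGFBP6 (82 to 643).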
